A study of Saccharomyces cerevisiae W303 with 24 samples.

Results

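Yeast disomes are haploid strains with a second copy of a single chromosome. The genes described here are duplicated genes whose mRNA was not raised with their copy number. They were selected on the measured log2 ratios. A gene was kept when its response stayed under 0.3 log2 units both in disomes-ubp6Δ and in disomes. The response is the log2 ratio of strain over reference in the strain whose duplicated chromosome carries the gene, minus the mean of the same gene over the other 11 arrays of that genotype. Of 4506 duplicated open reading frames on the arrays, 4180 were measured well enough in both genotypes, and 238 of these belong to families set aside by name (such as hexose transporters, phosphate genes, ribosomal proteins, histones and genes with ADE, LYS and MET symbols). Of the remaining 3942, 137 genes met the rule. Another 28 genes under the threshold were among the families set aside.

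Each genotype was represented by 12 haploid MATa strains of the W303 background, each with another chromosome duplicated (I, II, V and all of VIII to XVI). RNA of each strain, grown in rich medium (YEPD), was measured on 1 two-colour array. In disomes-ubp6Δ the gene UBP6, which encodes a ubiquitin-specific protease of the proteasome, was replaced with CaURA3. The disomes carried UBP6, and both genotypes held their extra chromosome through HIS3 and KanMX6 on its 2 copies. These insertions lie between genes or within ADE1, LYS2, CAN1, ADE16, LEU9 or MET12, depending on the chromosome. The RNA in the other channel of each array is labelled wild-type. UBP6 had a strain signal of 24.2 to 268 on the disomes-ubp6Δ arrays and 1235 to 3924 on the disome arrays. Its reference signal was 12.9 to 65.1 on the disomes-ubp6Δ arrays, against 1842 to 4474 on the disome arrays. The reference of the disomes-ubp6Δ thus went against that label. Dye and reference therefore cannot be told apart from the genotype. The arrays measured whole cultures, in which fewer cells with a transcript and less transcript per cell cannot be told apart.

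In yeast the mRNA of a duplicated gene usually follows the number of copies. Single genes can depart from it where their transcript or promoter responds to their own product, to an end product of the pathway or to growth conditions. Pathways of amino acid and vitamin synthesis, nutrient transporters and stress genes are regulated in this way, and several RNA-binding proteins limit their own mRNA. The open reading frames next to telomeres are a further class, since they are often silenced and often belong to families with near-identical copies elsewhere.

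The duplicated chromosome in the label had the highest median log2 ratio of the 16 on 12 of 12 disome arrays. It was also the highest on 12 of 12 disomes-ubp6Δ arrays, but only after their sign was turned. By the dye labels the own chromosome ran in the opposite direction there. Some arrays stood apart. Duplicated genes had a median log2 ratio of 0.53 in disome-ubp6Δ XIV, against 0.81 to 0.95 in the other disomes-ubp6Δ. The median correlation with the other disomes was 0.68 to 0.74 for disomes I, II, V and VIII to XI, which share a slide. On that slide disome XII had 0.20. On other slides disomes XIII and XV had 0.16 and 0.24, and disomes XIV and XVI 0.32 each. The arrays of disomes I to XII had median Cy3 signals of 92 to 240, and those of disomes XIII to XVI 9330 to 12892. For disomes-ubp6Δ the median correlation was 0.21 to 0.51. Between 5837 and 6081 genes were measured per disome-ubp6Δ and between 5387 and 6132 per disome. Of the mating-type genes, the strain signal of the MATa gene STE2 was at least 477 on every array and that of the MATα gene MF(ALPHA)1 at most 76.6. Other markers overlapped. The MATα gene SAG1 had strain signals of 286 to 1012, and those of STE3 and MF(ALPHA)2 reached 169 and 141. Strain signals of the MATa genes BAR1 and AGA2 went down to 78.8 and 135.

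Under the threshold were 363 genes in disomes-ubp6Δ, which is 9.21% of the 3942, and 334 genes in disomes, which is 8.47%. The 137 genes under it in both make up 3.48% of the 3942. They were 37.7% of the genes under the threshold in disomes-ubp6Δ and 41.0% of those in disomes. Because these values chose the genes, they are given as a description. The median response of the 137 genes was 0.00 in disomes-ubp6Δ and 0.01 in disomes, and that of the other 3805 genes was 0.93 in disomes-ubp6Δ and 0.92 in disomes. In disomes-ubp6Δ 68 of the 137 responses were below 0, and in disomes 67 were. In both genotypes at once, 37 genes had a response below 0. The value on the own disome lay within the range of the other arrays in both genotypes for 122 of the 137 genes, and this was so for 356 of the other 3805. By the larger of their 2 responses, genes just inside the threshold were LGE1 at 0.2998 and YAR053W at 0.2993. Those just outside were EST1 at 0.302, ASC1 at 0.303 and YER053C-A at 0.306.

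**Figure D1:**
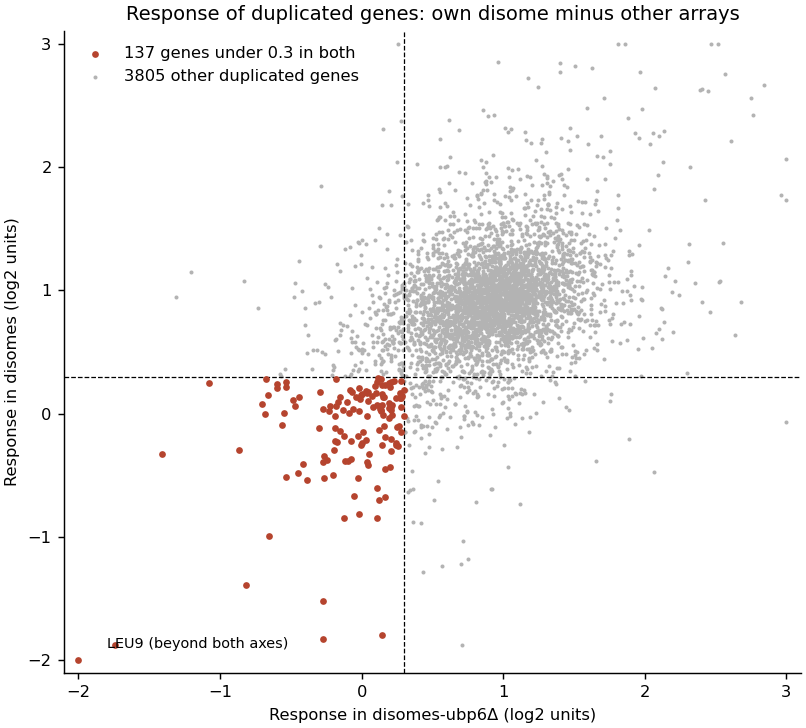
Response of 3942 duplicated genes in disomes-ubp6Δ (horizontal axis) and in disomes (vertical axis), in log2 units, with the 137 genes under 0.3 in both genotypes in red and dashed lines at 0.3. Genes beyond -2 or 3 are drawn at the edge. The 137 genes have medians of 0.00 in disomes-ubp6Δ and 0.01 in disomes, and the other 3805 genes medians of 0.93 in disomes-ubp6Δ and 0.92 in disomes.

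The 137 genes came from all 12 duplicated chromosomes, but unevenly. Chromosome I held 6 of 87 genes (6.90%), chromosome XII 25 of 455 (5.49%), chromosome XV 23 of 505 (4.55%) and chromosome XIV 16 of 358 (4.47%). Chromosome IX held 3 of 183 (1.64%) and chromosome X 6 of 331 (1.81%). On chromosome XIV 73 genes were under the threshold in disome-ubp6Δ XIV and 22 in disome XIV, and the array of disome-ubp6Δ XIV is the one with the low median. On chromosome XII 39 genes were under it in disome-ubp6Δ XII and 73 in disome XII. Without chromosomes XII and XIV, 96 of 3129 genes met the rule. When each response was divided by the median response of its own chromosome, 127 of the 137 genes stayed under 0.3, with 12 of the 16 on chromosome XIV and 24 of the 25 on chromosome XII among them.

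**Figure D2:**
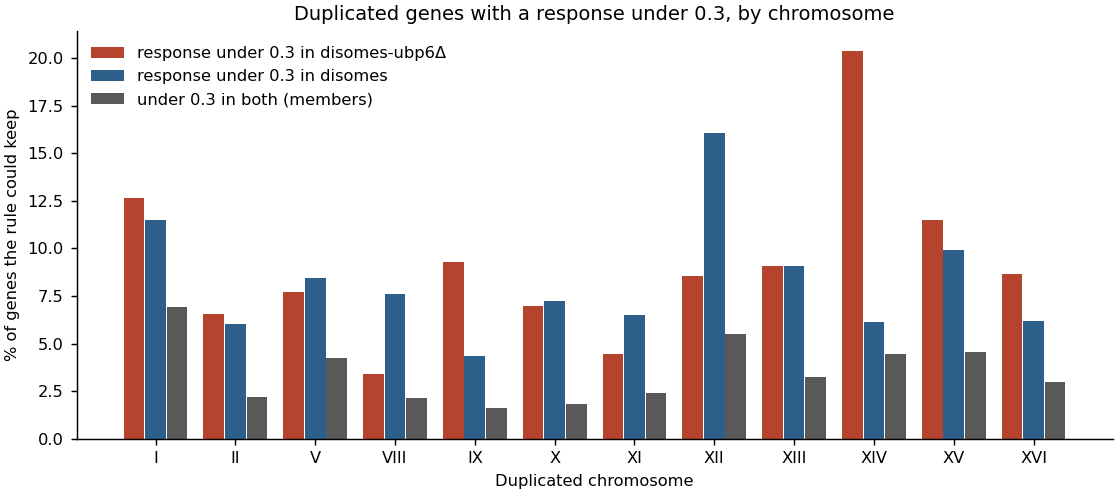
Percentage of the genes of each duplicated chromosome with a response under 0.3 in disomes-ubp6Δ (red), in disomes (blue) and in both (grey, the 137 genes). Chromosome XIV stands out in disomes-ubp6Δ at 20.4% and chromosome XII in disomes at 16.0%, with 6.15% in disomes for chromosome XIV and 8.57% in disomes-ubp6Δ for chromosome XII.

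Which genes met the rule depended on the set of other arrays. With only the other arrays of the same slide in the mean, 82 of the 123 genes that could be measured stayed under 0.3 in both genotypes. For disomes XIII to XV that mean rested on 2 other arrays, and disome XVI had no such value. With the median of the other arrays in place of the mean, 111 of the 137 did. Of 112 genes measured under all 9 alternative treatments of the values, 65 stayed under the threshold in all. With genes measured in fewer treatments included, 75 stayed under it wherever they were measured. These treatments included another background correction, the deposited value table and a stricter filter on dim spots. Of the members named in the text, the following were not under 0.3 in both genotypes in at least 2 treatments: ARG8, COS2, ISU2, LGE1, YAR073W, YEL076C, YJR023C, YRF1-7, USV1, YMR320W, YNL018C, YNL143C, ALP1 and ENB1. In 1 treatment the same was true of ABF1, AHT1, AQR1, CPA1, CSS1, CWP2, CYB5, FEX1, GCV2, IMD2, IMP2, MEP2, OPT2, PDH1, PRY1, RGS2, SHC1, UGP1, YAR053W, YAR064W, YBR226C, YEL074W and YLR458W.

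Of the members measured on all 24 arrays and with a gene name, the 8 with the smallest spread over the other arrays were RCH1, PDC5, PDC1, RPP0, MAS1, PET122, NRD1 and AHT1, and all but AHT1 stayed under the threshold in all 9 treatments. PDC1 and PDC5 on chromosome XII encode the major and a minor pyruvate decarboxylase of fermentation, and PDC5 is known to be induced when PDC1 is lost. PDC1 had a log2 ratio of -0.01 in disome-ubp6Δ XII, and the other disomes-ubp6Δ ranged from -0.49 to -0.02 with a median of -0.28. In disome XII it had -0.32, and the other disomes ranged from -0.58 to 0.16 with a median of -0.17. The own value of PDC1 thus lay just above the other arrays in disomes-ubp6Δ and within them in disomes. PDC5 had 0.13 in disome-ubp6Δ XII, with -0.42 to 0.34 and a median of -0.08 in the other disomes-ubp6Δ. In disome XII it had -0.09, and the other disomes ranged from -0.73 to -0.10 with a median of -0.30. PDC1 had responses of 0.26 in disomes-ubp6Δ and -0.10 in disomes. PDC5 had responses of 0.19 in disomes-ubp6Δ and 0.25 in disomes, and its own value was above all but 2 of the other disomes-ubp6Δ and just above all of the other disomes. The paralogs are similar in sequence, and signal shared between their probes was not tested.

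RPP0 encodes the P0 protein of the ribosomal stalk, and its symbol is not among those set aside. Its log2 ratio was 0.24 in disome-ubp6Δ XII, against -0.18 to 0.48 in the other disomes-ubp6Δ, and -0.36 in disome XII, against -0.33 to 0.19 in the other disomes. In disome XII the duplicated gene was therefore lower than in any other disome, by a small margin. MAS1, a subunit of the protease that removes import signals in mitochondria, had 0.02 in disome-ubp6Δ XII within a range of -0.47 to 0.16, and 0.05 in disome XII within -0.32 to 0.61. PET122 on chromosome V encodes an activator of the translation of a mitochondrial mRNA. It had -0.38 in disome-ubp6Δ V, with -0.46 to 0.43 in the other disomes-ubp6Δ, and -0.54 in disome V, with -0.56 to 0.02 in the other disomes. Both own values of PET122 were near the lower end of the other arrays. RCH1, a membrane protein of calcium homeostasis on chromosome XIII, had responses of 0.24 in disomes-ubp6Δ and 0.13 in disomes, and its neighbour IMP2 was also among the 137 genes. AHT1 had responses of -0.22 in disomes-ubp6Δ and 0.06 in disomes.

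**Figure D3:**
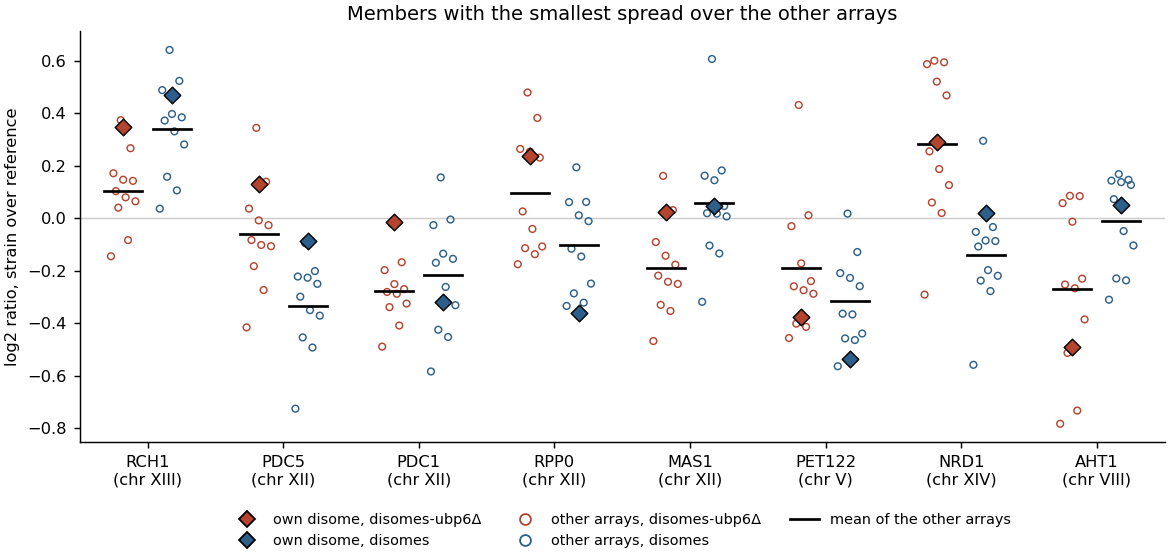
Log2 ratio of strain over reference for the 8 genes with the smallest spread over the other arrays. For each gene disomes-ubp6Δ (red) stand left of disomes (blue), diamonds are the strain that has the gene duplicated, circles are the other 11 strains and bars their mean. The diamonds lie among or beside the circles, such as NRD1 at 0.29 within -0.29 to 0.60 in disomes-ubp6Δ and at 0.02 within -0.56 to 0.29 in disomes.

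Several members encode proteins that act on RNA or DNA and are known to limit their own expression. NRD1 on chromosome XIV encodes an RNA-binding protein that ends the transcription of short RNAs and shortens its own transcript. It had a log2 ratio of 0.29 in disome-ubp6Δ XIV and 0.02 in disome XIV, with responses of 0.01 in disomes-ubp6Δ and 0.16 in disomes. DBP2, an RNA helicase with an intron through which it controls its own mRNA, had -0.44 in disome-ubp6Δ XIV, with -0.76 to 0.05 in the other disomes-ubp6Δ. In disome XIV it had -0.34, with -1.05 to 0.37 in the other disomes. The responses of DBP2 were -0.19 in disomes-ubp6Δ and -0.12 in disomes. IMD2 on chromosome VIII encodes IMP dehydrogenase of guanine nucleotide synthesis, and the choice of its start site follows the supply of GTP. It had responses of 0.05 in disomes-ubp6Δ and -0.32 in disomes over a wide spread, with other arrays from -0.76 to 1.22 in disomes-ubp6Δ and from -1.86 to 0.98 in disomes. With only the same slide its response in disomes-ubp6Δ was 0.67. 

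These 3 genes were the only members among 31 measured genes of a list of nucleotide synthesis and genes with feedback on their own RNA (9.68%, against 3.48% of all genes). The list was written with earlier results of these data known, so its share is a description. DBP2 and NRD1 are not genes of nucleotide synthesis, and among those that are, IMD2 was the only member. TIS11, with 0.06 in disomes-ubp6Δ and 1.01 in disomes, and AAH1, with 0.36 in disomes-ubp6Δ and 0.21 in disomes, were under the threshold in 1 genotype only. The responses of the other 26 genes lay between 0.38, for PRS5 in disomes-ubp6Δ and IMD3 in disomes, and 2.06, for URA5 in disomes. Among these 26 was NAB3, which encodes the partner of Nrd1, with 1.22 in disomes-ubp6Δ and 0.80 in disomes. Chosen after their values were seen, 3 further genes have a known effect on their own expression. HRP1, an mRNA 3′ end factor on chromosome XV, had responses of -0.01 in disomes-ubp6Δ and -0.26 in disomes. RAP1, a DNA-binding protein of ribosomal protein promoters and telomeres on chromosome XIV, had -0.04 in disomes-ubp6Δ and 0.13 in disomes. ABF1, a DNA-binding factor of promoters and origins on chromosome XI, had 0.15 in disomes-ubp6Δ and 0.13 in disomes. HRP1 and RAP1 stayed under the threshold in all 9 treatments and ABF1 in 8.

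Amino acid synthesis was the list with the largest share of members. Of 51 measured genes, 8 met the rule (15.7%, against 3.48% of all genes): ARG1, ARG8, CPA1, ASN1, GCV2, SNO1, SNZ1 and LEU9. This share counts LEU9, which was disrupted in strain construction, and SNO1 and SNZ1, which are vitamin B6 genes counted on a further list. The next largest share was 13.2%, for subtelomeric families. The amino acid list was written with earlier results of these data known, and none of the 8 lies on chromosome XII or XIV. Outside these 8, the median gene of the list did respond, since over all 51 the median of the mean response was 0.86.

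LEU9, a minor isoform of the first enzyme of leucine synthesis, belongs to the strain construction. Its log2 ratio was -5.93 in disome-ubp6Δ XV, against -1.03 to 0.11 in the other disomes-ubp6Δ, and -6.49 in disome XV, against -0.76 to -0.10 in the other disomes. Both copies of LEU9 carry the selection markers in these strains, so its responses of -5.63 in disomes-ubp6Δ and -6.11 in disomes record the deletion and check the label of both arrays. It was the only one among the 137 of the 15 measured marker and insertion site genes that were not set aside by name. LYS2, which was set aside, had responses of -2.51 in disomes-ubp6Δ and -1.79 in disomes. RGS2, a regulator of glucose signalling next to LEU9, was also among the 137, with responses of 0.05 in disomes-ubp6Δ and 0.18 in disomes. It had 0.22 in disome-ubp6Δ XV, within -0.74 to 0.70, and -0.09 in disome XV, within -0.87 to 0.14.

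Arginine synthesis gave 3 members. ARG1, argininosuccinate synthetase, had the lowest values of the 3, with -1.70 in disome-ubp6Δ XV and -1.95 in disome XV. The other disomes-ubp6Δ ranged from -3.52 to 0.39 with a median of -0.86, and the other disomes from -1.98 to 0.75 with a median of -0.58. In both genotypes the array of chromosome XIII was the lowest for ARG1, and the own disome lay near the low end. ARG8, a mitochondrial enzyme of ornithine synthesis, had -0.96 in disome-ubp6Δ XV, with -1.65 to -0.17 in the other disomes-ubp6Δ. In disome XV it had -0.52, with -1.42 to -0.23 in the other disomes. CPA1, a subunit of carbamoyl phosphate synthetase, is repressed by arginine through a leader peptide of its mRNA. It had 0.17 in disome-ubp6Δ XV and -0.55 in disome XV, with responses of 0.21 in disomes-ubp6Δ and -0.21 in disomes. Of the other arginine genes, ARG2 had responses of 0.98 in disomes-ubp6Δ and 0.71 in disomes. ARG3 and ARG4 were under the threshold in disomes only, with 1.33 in disomes-ubp6Δ and 0.27 in disomes and with 1.15 in disomes-ubp6Δ and 0.17 in disomes. ARG7 was under it in disomes-ubp6Δ only, with 0.00 in disomes-ubp6Δ and 0.52 in disomes.

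ASN1, asparagine synthetase on chromosome XVI, had 0.25 in disome-ubp6Δ XVI and -0.40 in disome XVI, with responses of 0.28 in disomes-ubp6Δ and -0.15 in disomes. GCV2, a subunit of glycine decarboxylase on chromosome XIII, had responses of 0.21 in disomes-ubp6Δ and 0.03 in disomes. Both had own values within the range of the other arrays.

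SNO1 and SNZ1 on chromosome XIII are neighbours transcribed from a shared promoter region, encode the enzyme of vitamin B6 synthesis and are known to be induced late in growth. SNZ1 had -0.55 in disome-ubp6Δ XIII, lower than in any of the other disomes-ubp6Δ, which ranged from -0.17 to 3.20 with a median of 0.61. In disome XIII it had 0.64, and the other disomes ranged from 0.04 to 2.88 with a median of 0.43. SNO1 had -1.18 in disome-ubp6Δ XIII, with -0.75 to 2.87 and a median of 0.32 in the other disomes-ubp6Δ. In disome XIII it had 0.20, with 0.40 to 4.19 and a median of 1.90 in the 8 other disomes in which it was measured. In disomes-ubp6Δ both genes were lowest in the strain that has 2 copies of them, and they were highest in disome-ubp6Δ XI. SNZ1 had responses of -1.41 in disomes-ubp6Δ and -0.33 in disomes, and SNO1 of -1.74 in disomes-ubp6Δ and -1.87 in disomes. With NRT1, a nicotinamide riboside transporter with -0.17 in disomes-ubp6Δ and 0.09 in disomes, they were the 3 members among 34 vitamin and cofactor genes. Their share was 8.82%, against 3.48% of all genes.

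**Figure D4:**
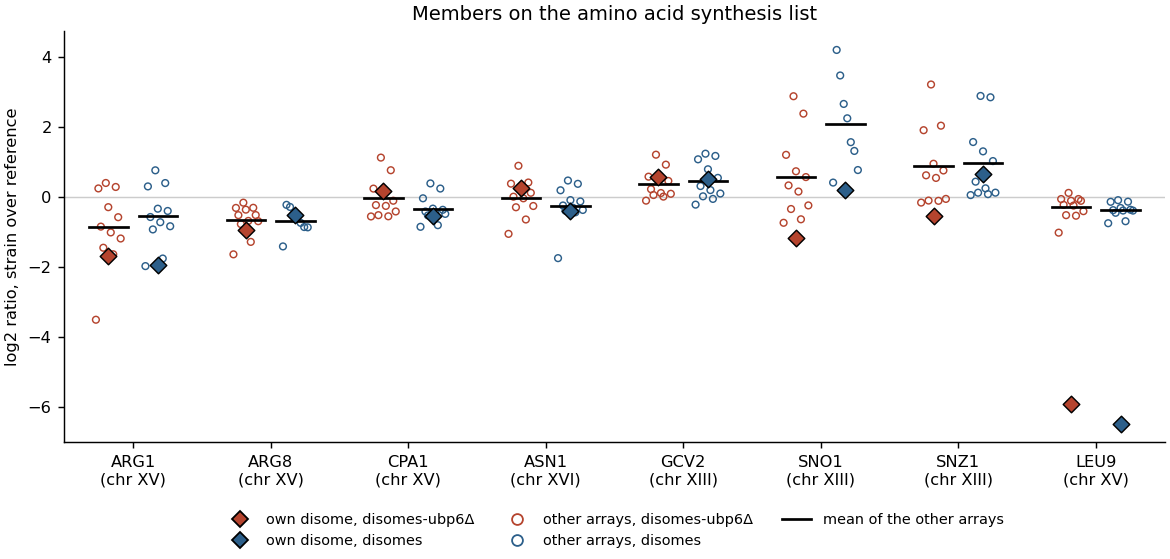
Log2 ratio of strain over reference for the 8 members on the amino acid synthesis list, drawn as in the plot of the steady genes, with disomes-ubp6Δ (red) left of disomes (blue). LEU9 stands at -5.93 in disomes-ubp6Δ and -6.49 in disomes in its own strains, SNZ1 and SNO1 lie below all other disomes-ubp6Δ, and the circles of ARG1, SNO1 and SNZ1 spread over several log2 units.

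The lists of drug and of nitrogen genes held 7 members, of which 5 encode transporters. QDR2, a drug and potassium transporter on chromosome IX, had -0.43 in disome-ubp6Δ IX and -0.47 in disome IX. The other disomes-ubp6Δ ranged from -1.04 to 1.51 with a median of -0.14, and the other disomes from -1.43 to 1.40 with a median of 0.06. AQR1, an exporter of acids and amino acids on chromosome XIV, had responses of -0.47 in disomes-ubp6Δ and 0.06 in disomes. GRE2, a stress-induced reductase on chromosome XV, had -0.57 in disomes-ubp6Δ and -0.10 in disomes. QDR2, AQR1 and GRE2 were the members among 31 multidrug and detoxification genes (9.68%, against 3.48% of all genes). Of 53 nitrogen genes 4 met the rule (7.55%, against 3.48% of all genes). MEP2, the ammonium permease of chromosome XIV, had responses of 0.11 in disomes-ubp6Δ and -0.85 in disomes, with other arrays from -1.90 to 2.01 in disomes-ubp6Δ and from -2.65 to 2.30 in disomes. In both genotypes MEP2 was highest in the strain of chromosome V and lowest in that of chromosome XV. With only the same slide MEP2 and AQR1 had responses of 0.73 and 0.73 in disomes and were no longer under the threshold. CAR1, arginase, had -0.07 in disomes-ubp6Δ and -0.36 in disomes. OPT2, an oligopeptide transporter, had 0.04 in disomes-ubp6Δ and -0.02 in disomes, and ALP1, an arginine transporter, had -0.18 in disomes-ubp6Δ and 0.28 in disomes. FEX1, a fluoride exporter near the end of chromosome XV, had responses of -0.02 in disomes-ubp6Δ and -0.81 in disomes. With only the same slide its response in disomes was 0.68.

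The lists of stress and cell wall genes held 7 members. From 54 stress genes came XBP1, USV1, UGP1 and SNO4 (7.41%, against 3.48% of all genes). XBP1 on chromosome IX encodes a repressor made under starvation. It had 0.58 in disome-ubp6Δ IX within -0.23 to 0.89, and 1.29 in disome IX within 0.08 to 1.47. The own value of XBP1 in disome IX was thus well above the reference, but so were the other disomes, with a median of 1.21. Of the 137 genes, 15 had own values above 0.5 in both genotypes in this way. UGP1, which makes UDP-glucose, had responses of 0.11 in disomes-ubp6Δ and 0.07 in disomes. USV1, a regulator of stress genes, had 0.11 in disomes-ubp6Δ and 0.26 in disomes. From 53 cell wall genes came PIR3, CWP2 and PRY1 (5.66%, against 3.48% of all genes). PIR3, a structural cell wall protein on chromosome XI, had the largest spread of all 137. It had 1.77 in disome-ubp6Δ XI within -0.49 to 3.99, and 1.27 in disome XI within -0.67 to 4.92. CWP2, another cell wall protein, had responses of -0.02 in disomes-ubp6Δ and 0.21 in disomes, and PRY1, a secreted sterol-binding protein, of -0.01 in disomes-ubp6Δ and 0.15 in disomes.

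The lists in this paragraph had shares of members of 0 to 5.00%, against 3.48% of all genes. In none of the lists was SDH2, the iron-sulfur subunit of succinate dehydrogenase on chromosome XII, with responses of -0.41 in disomes-ubp6Δ and -0.40 in disomes. It had -0.22 in disome-ubp6Δ XII, with -0.27 to 1.31 in the other disomes-ubp6Δ, and 0.09 in disome XII, with -0.01 to 1.41 in the other disomes. PDH1, an enzyme of propionate use, was the only member of 41 genes of carbon use (2.44%), with 0.11 in disomes-ubp6Δ and -0.60 in disomes. Of 40 zinc, copper and iron genes 2 met the rule (5.00%). ISU2, a scaffold of iron-sulfur clusters, had 0.28 in disomes-ubp6Δ and 0.12 in disomes, and ENB1, an iron siderophore transporter, had 0.21 in disomes-ubp6Δ and 0.25 in disomes. SHC1, an activator of chitin synthesis during sporulation, was 1 of 32 sporulation genes, with 0.13 in disomes-ubp6Δ and -0.13 in disomes. There were 0 members among 26 mating, 52 sterol and lipid, 43 cell cycle, 55 chaperone and proteasome, and 102 ribosome biogenesis and RNA polymerase genes. Beside a share of 3.48% over all genes, these counts are a description. The median of the mean response in these lists was between 0.81 and 0.98.

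The rule did not use position, and many of the 137 genes lay near the ends of chromosomes. Among the 10 open reading frames nearest to a chromosome end were 34 of the 137 genes (24.8%) and 143 of the other 3805 (3.76%). Of the 84 measured reading frames in the 5 places nearest an end 22 met the rule (26.2%), and of the 93 in the next 5 places 12 did (12.9%). Farther in, the share was 1.44 to 3.33%. Without chromosomes XII and XIV the share near the ends was 29.2%, and among genes held in the reference annotation it was 19.8%. Of the 38 measured genes of subtelomeric families, 5 met the rule (13.2%, against 3.48% of all genes), namely ENB1, COS2, CSS1, YRF1-6 and YRF1-7. The YRF1 genes encode helicases of the Y′ elements, and both are the outermost measured reading frames of their arms. YRF1-6 had responses of -0.68 in disomes-ubp6Δ and -0.01 in disomes, and YRF1-7 of -0.60 in disomes-ubp6Δ and 0.24 in disomes. COS2, of a family of membrane proteins, had 0.14 in disomes-ubp6Δ and 0.23 in disomes. CSS1, near the end of chromosome IX, had -0.02 in disomes-ubp6Δ and 0.03 in disomes. YRF1 and COS genes have near-identical copies on other chromosomes that these strains hold once. Signal from such copies in the probe of a member was not tested. The responses of these genes, and of any other member with copies elsewhere, are therefore uncertain.

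Neighbouring members were also frequent. Next to another member among the measured genes stood 44 of the 137 (32.1%) and 214 of the other 3805 genes (5.62%). There were 17 pairs and 3 longer runs, and all of the longer runs lay near a chromosome end. The longest held 4 reading frames on the left arm of chromosome V. In it YEL076C had responses of -1.08 in disomes-ubp6Δ and 0.25 in disomes, and YEL075W-A of 0.26 in disomes-ubp6Δ and -0.26 in disomes. YEL075C had -0.54 in disomes-ubp6Δ and 0.26 in disomes, and YEL074W had 0.27 in disomes-ubp6Δ and 0.13 in disomes. On the right arm of chromosome I the responses in disomes-ubp6Δ were -0.09 for YAR064W, -0.19 for YAR068W and 0.16 for YAR073W. In disomes they were 0.00 for YAR064W, -0.29 for YAR068W and 0.24 for YAR073W. On the right arm of chromosome XIII YMR320W had 0.20 in disomes-ubp6Δ and -0.43 in disomes, and YMR321C had -0.53 in disomes-ubp6Δ and -0.51 in disomes. SNO4, of a family of stress-induced proteins, had -0.12 in disomes-ubp6Δ and -0.85 in disomes. SNO4 was highest in the strains of chromosome XV, with log2 ratios of 1.43 in disome-ubp6Δ XV and 1.97 in disome XV. YMR321C was highest in those of chromosome XVI, with 0.91 in disome-ubp6Δ XVI and 1.26 in disome XVI. Signal from copies on other chromosomes was not tested for these genes either. With only the same slide, YMR320W was at 0.61 in disomes.

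Inside the chromosomes, several pairs joined a named gene to a reading frame absent from the reference annotation or without a name. ATP14, a subunit of mitochondrial ATP synthase on chromosome XII, had responses of -0.27 in disomes-ubp6Δ and -0.52 in disomes, and YLR294C beside it had -0.17 in disomes-ubp6Δ and -0.23 in disomes. MAS1 stood next to YLR162W, ABF1 next to YKL111C and MEP2 next to YNL143C. In a pair of named genes, DBP2 stood next to CYB5, which encodes cytochrome b5 and had 0.17 in disomes-ubp6Δ and -0.19 in disomes. Near the right end of chromosome VIII, and so not inside it, IMD2 stood next to YHR217C. Overlap of transcripts between such neighbours was not tested. Of the 137 genes, 26 were reading frames not held in the reference annotation (19.0%), against 180 of the other 3805 (4.73%). Another measure of this is that 54 of the 137 had no name beyond the systematic one (39.4%), against 12.5% of the others.

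YLR162W and RRT7 on chromosome XII were the genes with the lowest responses in disomes after LEU9 and SNO1. YLR162W had 0.73 in disome-ubp6Δ XII, within -0.70 to 2.17. In disome XII it had -1.20, and disome XIII alone was lower, with -1.29, in a range up to 1.26. RRT7 had 0.46 in disome-ubp6Δ XII, within -0.06 to 0.98, and -1.42 in disome XII, below the other disomes at -1.07 to 1.16. For both genes disomes XII and XIII were the lowest of the 12, and the array of disome XII is among those that stood apart. DSF1, near the left end of chromosome V, had responses of -0.87 in disomes-ubp6Δ and -0.29 in disomes, with other arrays from -0.34 to 2.06 in disomes-ubp6Δ and from -0.45 to 3.37 in disomes.

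The spread over the other arrays was wider for the 137 genes. The median SD was 0.45 in disomes-ubp6Δ, against 0.30 for the other 3805 genes, and in disomes it was 0.47 for the 137 genes, against 0.28 for the others. When the 3942 genes were ordered by the larger of their SDs and divided into 5 equal classes, the classes from the steadiest to the most variable held 5, 6, 15, 40 and 71 of the 137. The share of members in the steadiest class was 0.634%, and in the most variable 9.00%. Without chromosomes XII and XIV the most variable class held 51 of 96 members. Only 10 of the 137 genes had an SD under 0.3 in both genotypes, against 1471 of the other 3805. SD and response use the same arrays, so no test was made. The values of some members differed by slide. YOL013W-B was at 1.70 to 3.10 in disomes I, II, V and VIII to XI, which share a slide. In disomes XIII to XVI, of other slides, it was at -0.28 to 0.68. How much of the spread of the 137 genes lay between slides was not tested. The spots of a gene on its own array differed by a median of 0.07 log2 units in disomes-ubp6Δ for the 137 genes and 0.04 for the others, and in disomes by 0.06 for both. The reference signal had a median of 497 for the 137 genes and 1086 for the others on disomes-ubp6Δ arrays. On disome arrays it had a median of 719 for the 137 genes and 1602 for the others. The part of lower signal in the result was not tested.

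**Figure D5:**
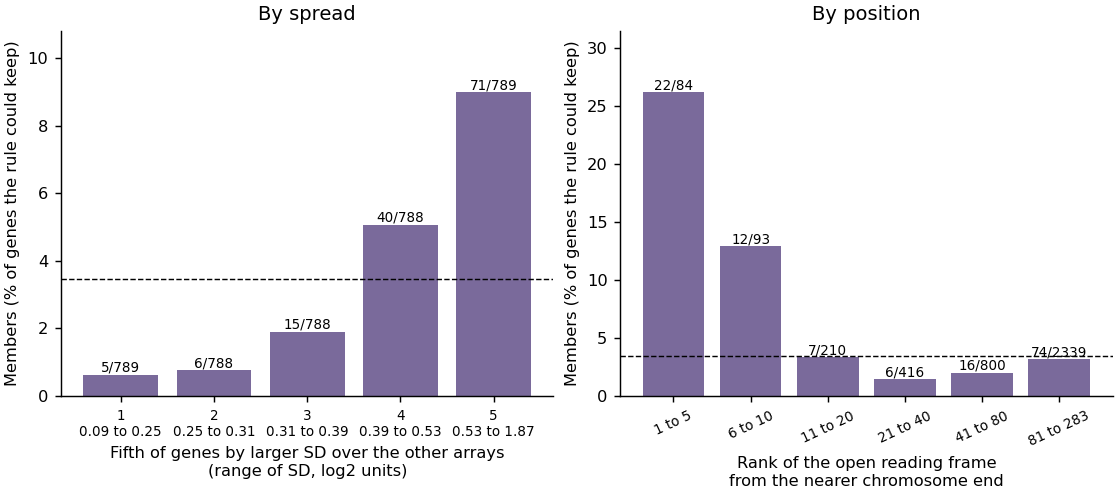
Share of members among genes in classes of spread (left, 5 equal classes by the larger SD over the other arrays) and of position (right, rank of the open reading frame from the nearer chromosome end). Numbers above the bars are members of genes in the class, and the dashed line is the share over all genes, 3.48%. The share is highest in the most variable class, at 9.00%, and in the 5 places nearest an end, at 26.2%.

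The log2 ratio of the members away from their own disome was also compared between genotypes. On the disomes-ubp6Δ arrays UBP6 signal was low in strain and reference alike. The references thus differ, and the ratios are not mRNA levels of the genotypes. The rule subtracts the same arrays in both genotypes, so the values are not independent of it. For the members they are given as a description with no p. Passing the fit over all genes is no support for a difference in a member. The log2 ratio in disomes-ubp6Δ minus that in disomes was fitted for all genes within the 12 pairs of the same duplicated chromosome with limma, leaving out the own disome. Of 5771 genes tested, 1999 passed an adjusted p of 0.05 (34.6%), with 946 higher (16.4%) and 1053 lower (18.2%) in disomes-ubp6Δ. The 137 genes included 52 of these (38.0%), 21 higher and 31 lower. YOR029W averaged 0.56 in the disomes-ubp6Δ and -0.51 in the disomes, a difference of 1.07 ± 0.18 (SE), and was higher in 11 of 11 pairs. XBP1 averaged 0.38 in the disomes-ubp6Δ and 1.07 in the disomes, a difference of -0.69 ± 0.11 (SE), and was lower in 11 of 11 pairs. RGS2 differed by 0.45 ± 0.08 (SE), with means of 0.17 in the disomes-ubp6Δ and -0.27 in the disomes. NRD1 differed by 0.43 ± 0.11 (SE), with means of 0.28 in the disomes-ubp6Δ and -0.14 in the disomes. ABF1 differed by -0.56 ± 0.14 (SE), with means of -0.70 in the disomes-ubp6Δ and -0.14 in the disomes.

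Several of these differences depended on the treatment of the arrays. After normexp correction the difference was -0.23 for XBP1, 0.16 for RGS2 and 0.63 for YOR029W, and XBP1 and RGS2 no longer passed. NRD1 was at 0.39 and ABF1 at -0.53, and both passed. Without pairing 31 of the 137 genes passed (22.6%), with 25.1% of all genes, and after normexp correction 30 did (21.9%), with 31.2% of all genes. With the slide of the disome array as a random block 9 of the 137 passed (6.57%), with 10.6% of all genes. Among the 9 were XBP1, RGS2, ABF1 and YOR029W but not NRD1. A slide holding both genotypes existed only once, with disome XVI and the disomes-ubp6Δ I, II, V and VIII. With slide as a fixed block, which leaves that slide alone to carry the genotype, 0 of 121 members passed in limma (14 at an unadjusted p of 0.05) and 1.69% of all genes did. Dye, reference and loss of UBP6 cannot be told apart in this difference for any gene, and for most genes slide cannot either.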

How the data were processed

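RNA of 24 strains was hybridized on two-colour arrays with 6256 probes of 6176 open reading frames, 2 spots per probe. The authors extracted the images with Feature Extraction 10.7.1.1. The deposited intensity values are the processed signals, background-subtracted and dye-normalized by that software, and the median spot and background signals. The deposited flags mark spots well above background, which were used as a filter, and outliers, which were left out in an alternative. The deposited value table holds log2 values of the authors, which followed the spot ratios of strain over reference on all 24 arrays. The number of arrays limits the precision, since each strain has 1 array. The p-values measure a spread in which strain and array are mixed, and also slide where it was not fitted. The paired fit takes pairs as independent, although many of their arrays share a slide.

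The log2 ratio of Cy5 over Cy3 processed signal was taken for non-control spots well above background in at least 1 channel, averaged by gene, and its sign was turned on the disomes-ubp6Δ arrays, where the own chromosome runs opposite to the dye labels. A response needed at least 6 other arrays. The members and gene lists were chosen with earlier results of these data known. Symbols came from RefSeq, which held 111 of the 137 members, and position is the order of systematic names, with no coordinates used.

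The paired test used limma 3.58.1 in R 4.3.3 with Benjamini-Hochberg adjustment over 5771 genes and at least 6 pairs. It was tried on simulated data with independent noise and no effects of slide, dye or reference. That trial cannot show how the test behaves where arrays share a slide. Pairs share the duplicated chromosome in the labels. Deviations from the genotype means correlated at -0.04 to 0.65 within pairs (median 0.32, above 0.1 in 11 of 12) and at a median of -0.03 between other strains. Named genes were the 12 members with the lowest mean response and the 8 with the smallest spread (both measured on all 24 arrays), 3 on each side of the threshold (1 of them not reported here), up to 4 of each list, the 4 largest differences between genotypes in each direction, marker genes and runs of 3 or more. Further genes named outside this rule (ARG8, CPA1, ASN1, GCV2, RGS2, ATP14, CYB5, IMP2, HRP1, RAP1, ABF1 and the list genes that are no members) were chosen after their values were seen. Alternatives were another filter, background correction, centring, threshold, slide and set of other arrays.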

Additional observations from a re-analysis of the deposited data

Results flagged for a closer look

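Of the 137 genes, 8 were set apart as having the largest differences between disomes-ubp6Δ and disomes in each direction among those past the paired limma fit over all genes. The arrays compared are also those the choice of the 137 genes subtracts. The differences are therefore a description, and passing the fit is no support for them. YOR029W differed by 1.07, YEL075W-A by 0.99, YAR064W by 0.98 and YJR023C by 0.91 log2 units, higher in disomes-ubp6Δ in 11 of 11, 11 of 11, 8 of 9 and 6 of 6 pairs. SNO1 differed by -1.27 (lower in 7 of 8 pairs), YNL018C by -1.13 (8 of 11), YOL013W-B by -1.11 (8 of 10) and YLR458W by -0.98 (8 of 9). With the slide of the disome array as a random block, YOR029W, YEL075W-A and YJR023C remained past the threshold and the other 5 did not. After normexp correction YAR064W was at 0.20 and SNO1 at -0.31 and neither passed, while YJR023C was at 0.33, YOR029W at 0.63, YEL075W-A at 0.81, YLR458W at -0.33, YNL018C at -0.79 and YOL013W-B at -0.64. With slide as a fixed block none of the 7 that could be fitted passed. Apart from SNO1, these are reading frames with no name beyond the systematic one.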

How the results depend on the processing

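The number of genes under the threshold was 137 and lay between 98 and 192 under most other settings. It was 210 with normexp background correction and loess, of which 129 were among the 137, and 310 with the sign left as the dye labels give it, a setting in which the own chromosome of the disomes-ubp6Δ is below 0. With thresholds of 0.2 and 0.4 the count was 98 and 192, with no filter on background 189, and 122 genes met the rule in the deposited value table and with spots well above background in both channels. The median response of the 137 genes stayed between -0.04 and 0.03 in both genotypes under all settings run. Of 732 recomputed responses of named genes, 714 moved by less than the SD of the gene over the other arrays, and 14 of the 18 that moved by more did so with the other arrays of the same slide only. The cause was not tested.

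The genotype difference called 1999 genes with pairing and 1461 without it. It called 612 with the slide of the disome array as a random block and, in an alternative chosen after seeing the data, 89 with slide as a fixed block and no pairing. With the fixed block YOL013W-B turned to 0.77, against -1.11 with pairing. The other settings called 1752 to 2061 genes. Matching probes to the genome and searching promoters were not run. The correlation of the pair differences within slides was 0.20. Dim spots limit the ratios of genes near background, and 1 of the 137 genes, YBR226C, was not above background for the strain on its own disome array.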

Other observations

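Among the families set aside by name, 28 genes were under the threshold in both genotypes and are not described here. The pyridoxine genes SNO1 and SNZ1 had wide ranges over the strains. In the disomes SNO1 reached 4.19 and SNZ1 2.84 in disome XI, and SNZ1 reached 2.88 in disome XIV. PIR3 reached 3.99 in disome-ubp6Δ XV and 4.92 in disome XV, and was lowest in the strains of chromosome V, at -0.49 in disome-ubp6Δ V and -0.67 in disome V. ECM8 on chromosome II had responses of -0.66 in disomes-ubp6Δ and -0.99 in disomes over 20 measured arrays, and its other arrays ranged from 0.02 to 2.25 in disomes-ubp6Δ and from 0.31 to 2.47 in disomes. CTP1, the mitochondrial citrate carrier on chromosome II, had a log2 ratio of 1.00 in disome-ubp6Δ II and 0.80 in disome II. The medians of the other arrays were 0.87 in disomes-ubp6Δ and 0.72 in disomes, so that CTP1 was above the reference whether or not its chromosome was duplicated. These genes were chosen after their values were seen.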
